A study of Mus musculus with 22 samples.

Results

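The non-additive effect of beta-glucan and anti-CD40 is the part of the response to both agents that the responses to each agent alone do not give. It was computed for each gene by taking both single-agent levels from the combination level and adding back the untreated level, in a design of 4 groups (each agent given or not). All 22 of the 22 tumours entered, and 14278 of the 17966 genes were tested, those with a normalized count of at least 10 in at least 5 tumours. On the log2(normalized count + 1) scale this interaction is 0 where the fold changes of the agents multiply, and on the linear scale it is 0 where their changes in normalized count add. A value below 0 means that the combination was lower than the product, or the sum, of the single effects, and a value above 0 means that it was higher.

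The tumours grew after orthotopic implantation of PDA.7940B, a polyclonal line derived from the KPC mouse model of pancreatic ductal adenocarcinoma, and every sample carries the genotype label WT. The untreated group held 5 tumours. A group of 6 had received beta-glucan once by vein (1.2 mg), and another group of 6 had received the CD40 antibody FGK45 once into the peritoneum (0.1 mg). The combination group held 5 tumours given both agents, for which no doses are stated, and treated tumours were taken 10 days after treatment. The labels do not tie the tumours to separate mice, so the p-values cover only the spread among these 22 samples, which may be technical in part.

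Beta-glucan, a glucose polymer of fungal cell walls, is bound by Dectin-1, a C-type lectin receptor of myeloid cells that signals through the kinase Syk and the adaptor Card9. CD40 is a receptor of the tumour necrosis factor family on B cells, macrophages and dendritic cells, and an agonist antibody to it stands in for the ligand that T cells provide. Both routes reach NF-kB in antigen-presenting cells, and T cells that such cells activate release interferon-gamma, which raises chemokines, guanylate-binding proteins and MHC class I antigen presentation.

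Combination tumours were sequenced to 12.2 to 18.8 M reads, untreated ones to 7.38 to 9.34 M, beta-glucan ones to 7.13 to 8.74 M and anti-CD40 ones to 6.33 to 21.2 M. Against untreated and beta-glucan tumours, depth and the combination cannot be told apart, since the ranges do not overlap, while anti-CD40 tumours 1, 2 and 6 lay within or above the range of the combination. With reads thinned to equal depth, 140 genes were beyond both single agents, against 143, and limma called 0 genes for the log2 interaction, against 3. Acinar transcripts, from exocrine pancreas, took 0.0367 to 16.4% of reads in untreated tumours, 0.521 to 16.1% with beta-glucan, 0.577 to 60.9% with anti-CD40 and 0.543 to 32.5% with the combination. Krt19, a keratin of ductal epithelium, was taken as a marker of the implanted carcinoma. It was detected in all 22 tumours, at a lowest normalized count of 120.3 in combination tumour 5. Untreated tumour 6 stood apart from the other untreated tumours, with 16.4% acinar reads and Krt19 at 2918 against 5083 to 6328 in the others. In bulk tumour RNA, fewer cells of a type and less RNA per cell cannot be told apart.

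Few single genes were called for a departure from the product of the agents' effects. Limma called 3 genes at an adjusted p of at most 0.05, Glycam1, Dcstamp and Tuba1a, and all of them were below 0, which is 0.021% of the genes tested. Above 0 it called none (0%). At an unadjusted p under 0.05, 743 genes (5.2%) lay below 0 and 451 (3.16%) above. EdgeR's quasi-likelihood test on recovered reads called 2 genes and DESeq2 98, and 1171 and 1329 genes had an unadjusted p under 0.05 with them. The median interaction over all genes was -0.06, with quartiles at -0.48 and 0.31, and 7737 genes (54.2%) were below 0. Its median standard error was 0.48, against 0.34 for beta-glucan minus untreated, so the design resolved an interaction less finely than the effect of 1 agent.

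On the linear scale limma called 0 genes above 0 (0%) and 0 below (0%), and the smallest adjusted p was 0.268. At an unadjusted p under 0.05, 520 genes (3.64%) lay above 0 and 373 (2.61%) below. At any p, 6352 genes (44.5%) were below 0. Without the weights that take the SD as proportional to the level, limma called 31 genes, 26 above 0 and 5 below, and 1207 genes had an unadjusted p under 0.05. The scale set the sign for part of the genes: 1837 (12.9%) were below the product and above the sum, and 452 (3.17%) the reverse. On both scales 657 genes had an unadjusted p under 0.05, and 0 of these changed sign between the scales.

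Glycam1 encodes a sulphated mucin of high endothelial venules, the vessels through which lymphocytes enter lymph nodes, and it lies at chr15:103562759-103565081 on the minus strand of GRCm38. Its normalized count was 0 in all 5 untreated tumours. With beta-glucan it ranged from 7.60 to 32.8 (median 13.6, n = 6) and with anti-CD40 from 29.04 to 148.7 (median 54.4, n = 6). Combination tumours 1 to 5 held 44.4, 49.3, 79.2, 42.5 and 11.6. The combination thus lay within the range of the agents alone, and all 17 treated tumours were above all 5 untreated ones. Against a floor of 3 reads over the untreated group, the mean was at least 27.7-fold higher with beta-glucan, at least 117-fold higher with anti-CD40 and at least 76.1-fold higher with the combination. The log2 interaction was -4.60 ± 0.75 (limma, adjusted p = 0.0318). Because the untreated group had no reads, this value depends on the pseudocount, and with a pseudocount of 8 it was -2.06 (adjusted p = 0.201). On the linear scale it was -41.0 ± 66.3 (adjusted p = 0.959), so a departure from a sum was not detectable.

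Dcstamp encodes a membrane protein needed for cell fusion in osteoclasts and giant cells (chr15:39745930-39760938, plus strand). Untreated tumours 1, 2, 3, 5 and 6 held 13.3, 6.04, 12.3, 9.16 and 13.8. Beta-glucan tumours ranged from 189.9 to 300.9 (median 250.6) and anti-CD40 tumours from 21.7 to 101.5 (median 66.4). Combination tumours held 196, 123.6, 318.5, 120.9 and 135.8, all above every anti-CD40 tumour and overlapping the beta-glucan range. The log2 difference from untreated was 4.39 ± 0.36 with beta-glucan, 2.39 ± 0.36 with anti-CD40 and 3.86 ± 0.37 with the combination. Their product would put the combination at 1266, and its geometric mean was 166. The log2 interaction was -2.92 ± 0.50 (limma, adjusted p = 0.0385), and the linear one -121 ± 87.4 (adjusted p = 0.906).

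Tuba1a encodes an alpha-tubulin of microtubules (chr15:98949837-98953703, minus strand). Its 3' reads may be shared with the near-identical Tuba1b and Tuba1c, so its values are uncertain. Untreated tumours held 1857, 1428, 1850, 1831 and 995.5. It ranged from 3314 to 3895 (median 3535) with beta-glucan and from 1826 to 4268 (median 3019) with anti-CD40. Combination tumours held 2825, 2294, 2691, 1339 and 1483, all below every beta-glucan tumour, with tumours 4 and 5 within the untreated range. Tuba1a rose with beta-glucan (log2 1.21, adjusted p = 0.00123) and with anti-CD40 (log2 0.92, adjusted p = 0.00499), and with the combination the difference was 0.39 (adjusted p = 0.205). The log2 interaction was -1.74 ± 0.31 (limma, adjusted p = 0.0486), for an expected 6770 and an observed geometric mean of 2032. The linear interaction was -2900.3 ± 576 (adjusted p = 0.268).

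These calls depended on single tumours, although the sign of all 3 interactions was the same in every setting run. Glycam1 stayed under 0.05 without untreated tumour 3 or 6, beta-glucan 4 or 6, anti-CD40 3, 4, 5 or 6, or combination 1, 2 or 3. Without any 1 of the other 11 tumours (untreated 1, 2 or 5, beta-glucan 1, 2, 3 or 5, anti-CD40 1 or 2, combination 4 or 5) limma called 0 genes, and the adjusted p of Glycam1 was up to 0.088. Dcstamp also lost its call without anti-CD40 3 (adjusted p = 0.0556), beta-glucan 6 (0.061), combination 1 (0.0508) or combination 2 (0.0668). Tuba1a also lost its call without anti-CD40 3 (0.0556), anti-CD40 4 (0.078), beta-glucan 4 (0.0594), beta-glucan 6 (0.0892) or combination 2 (0.0668). Limma called 1 gene, Glycam1, without anti-CD40 3. In the other direction, it called 12 genes without untreated 6, 8 without anti-CD40 5 and 6 without anti-CD40 6. With values rescaled to equal totals 0 genes were called, and Tuba1a was at an adjusted p of 1.

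**Figure D1:**
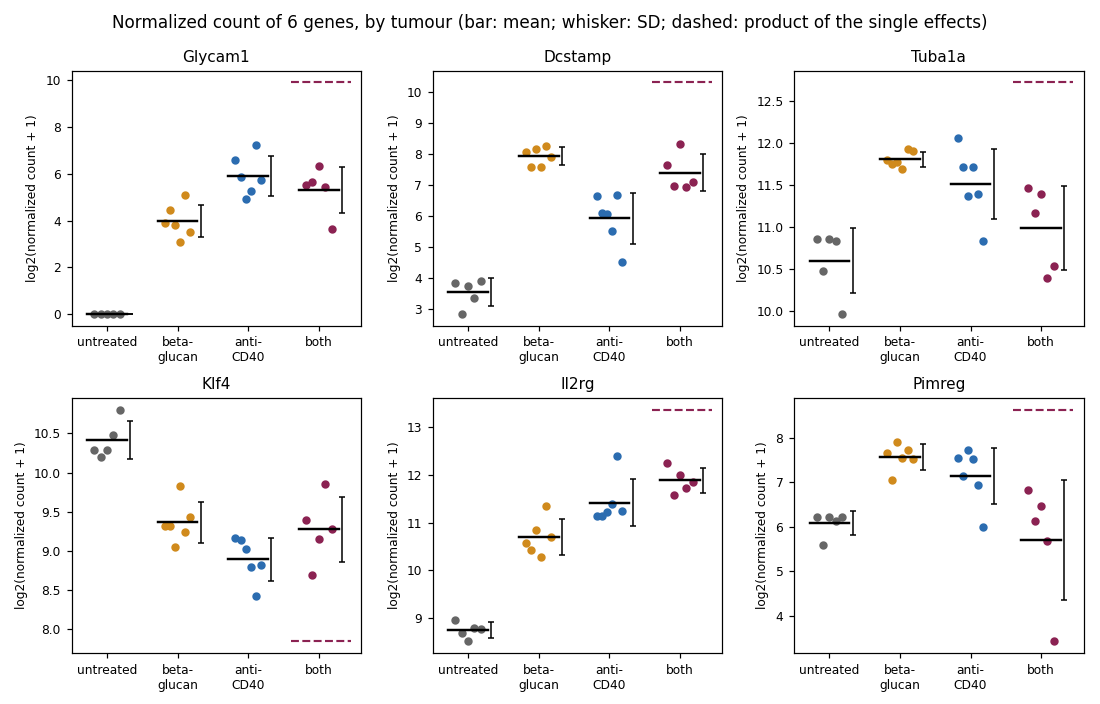
Log2(normalized count + 1) of 6 genes in each of the 22 tumours, by group (points, tumours; bars, group means; whiskers, SD). The dashed line marks where the combination would lie if the fold changes of the agents multiplied: it is above all 5 combination tumours for Glycam1, Dcstamp, Tuba1a, Il2rg and Pimreg and below all 5 for Klf4.

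The genes next in order of p that are described tumour by tumour fell into 3 shapes, and none of them passed the adjusted threshold on the log2 scale. Some others above 0 had a different shape, given after the third. In the first, each agent raised the gene and the combination did not reach the product. Angptl2, a secreted angiopoietin-like protein, was at 275.4, 233, 340.4, 271.5 and 195.3 in untreated tumours, at 425.5 to 899.9 (median 652.8) with beta-glucan and at 483.6 to 717.6 (median 628.2) with anti-CD40. Combination tumours held 677.8, 624.3, 434.4, 556.6 and 603.3, within the ranges of the single agents and above all untreated tumours. The log2 interaction of Angptl2 was -1.43 ± 0.27 (adjusted p = 0.0537).

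Il2rg encodes the common gamma chain shared by the receptors of several interleukins. Untreated tumours held 500, 410, 363.3, 439.9 and 437. It ranged from 1232 to 2593 (median 1592) with beta-glucan and from 2261 to 5359 (median 2400) with anti-CD40. Combination tumours held 4861, 3070, 4096, 3375 and 3707, so all 5 exceeded every beta-glucan tumour and overlapped anti-CD40 only through anti-CD40 tumour 5. For Il2rg the log2 interaction was -1.48 ± 0.30 (adjusted p = 0.0781), and its linear interaction was -343 ± 852 (adjusted p = 0.974).

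Fpr2, a formyl peptide receptor of neutrophils and monocytes, was at 52.4, 30.2, 64.05, 45.8 and 137.7 in untreated tumours. It ranged from 559 to 1383 (median 993) with beta-glucan and from 360 to 1742 (median 545) with anti-CD40. Combination tumours held 2942, 1356, 2369, 2011 and 1604, the highest group, overlapping both single-agent ranges. Fpr2 lay below the product (log2 -2.42 ± 0.50, adjusted p = 0.0938) and above the sum (linear 368 ± 937, adjusted p = 0.974). Neither value passed the test.

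In the second shape, the gene stood higher with each agent alone and near its untreated level with both. Pimreg, a protein of mitotic cells that binds the clathrin adaptor PICALM, was at 73.2, 47.5, 73.7, 68.7 and 73.9 in untreated tumours, 131.6 to 241.4 (median 193.5) with beta-glucan and 62.5 to 212.5 (median 161.7) with anti-CD40. Combination tumours held 111.9, 68.8, 87.5, 50.5 and 9.70, all below every beta-glucan tumour. The log2 interaction of Pimreg was -2.94 ± 0.60 (adjusted p = 0.0781), and -2.37 without combination tumour 5.

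Eno3, the enolase of muscle, was at 63.2, 57.8, 36.9, 113.4 and 98.9 in untreated tumours, 95.01 to 214.7 (median 157.8) with beta-glucan and 105.4 to 282.5 (median 167.7) with anti-CD40. Combination tumours held 72.03, 65.2, 90.04, 27.9 and 75.6, below every tumour of either single-agent group and within or under the untreated range. The log2 interaction of Eno3 was -2.47 ± 0.49 (adjusted p = 0.0781). Greb1, known as an oestrogen-responsive gene, was also higher on average with each agent alone: 109.8, 67.3, 71.07, 100.8 and 72.6 untreated, 142.2 to 217.6 (median 183.1) with beta-glucan, 78.7 to 199.5 (median 115.7) with anti-CD40 and 63.7, 49.9, 50.02, 74.4 and 104.8 with both. Unlike Eno3, Greb1 was highest with beta-glucan, and combination tumour 5 lay within the anti-CD40 range. The interaction was -1.91 ± 0.38 (adjusted p = 0.0781).

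In the third shape, each agent lowered the gene and the combination stood near the level of the single agents. Klf4, a transcription factor of epithelial differentiation and of myeloid cells, was at 1249, 1177, 1252, 1433 and 1789 in untreated tumours. It ranged from 525.7 to 907.3 (median 636.5) with beta-glucan and from 339.8 to 570.4 (median 484.2) with anti-CD40, and combination tumours held 671.4, 412.3, 566.1, 920.5 and 617.8. All 17 treated tumours were below all untreated ones, and the treated ranges overlapped. Klf4 fell with beta-glucan (log2 -1.05, adjusted p = 0.00115), anti-CD40 (log2 -1.53, adjusted p = 6.12e-06) and the combination (log2 -1.14, adjusted p = 9.96e-05). The product would put the combination at 228, and its geometric mean was 617, for a log2 interaction of 1.43 ± 0.27 (adjusted p = 0.0537).

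Il18, a cytokine that needs cleavage by an inflammasome to become active, was at 330.3, 391, 224.6, 242.9 and 239.2 in untreated tumours, 83.4 to 152.1 (median 115.9) with beta-glucan and 105.4 to 197.6 (median 138.7) with anti-CD40. Combination tumours held 155, 176, 135.9, 162.1 and 155.2, a narrow band under every untreated tumour. For Il18 it was 1.45 ± 0.31 (adjusted p = 0.1). Of the other genes above 0 with the smallest p, the histone demethylase Kdm5b (0.92), the immediate early gene Fos (2.16) and Star (1.62), a mitochondrial cholesterol carrier, had adjusted p of 0.131, 0.193 and 0.193. Star did not have the third shape, as its combination stood near the untreated level. Its mean was 196.3 untreated, 114.3 with beta-glucan, 132 with anti-CD40 and 217.2 with both. Vps13b (1.555), which overlaps annotated genes on both strands, stood at 280.5, 154.4, 172.9 and 270.2 in the same order. It did not pass either. DESeq2 on recovered reads gave the 8 genes described tumour by tumour (Angptl2, Il2rg, Fpr2, Pimreg, Eno3, Greb1, Klf4 and Il18) adjusted p from 0.000469 to 0.00555, and edgeR called none of them. Fpr2, Il2rg, Greb1 and Tuba1a overlap another annotated gene on their own strand, and Angptl2 and Il18 one on the opposite strand, so some of their reads cannot be assigned with certainty.

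**Figure D2:**
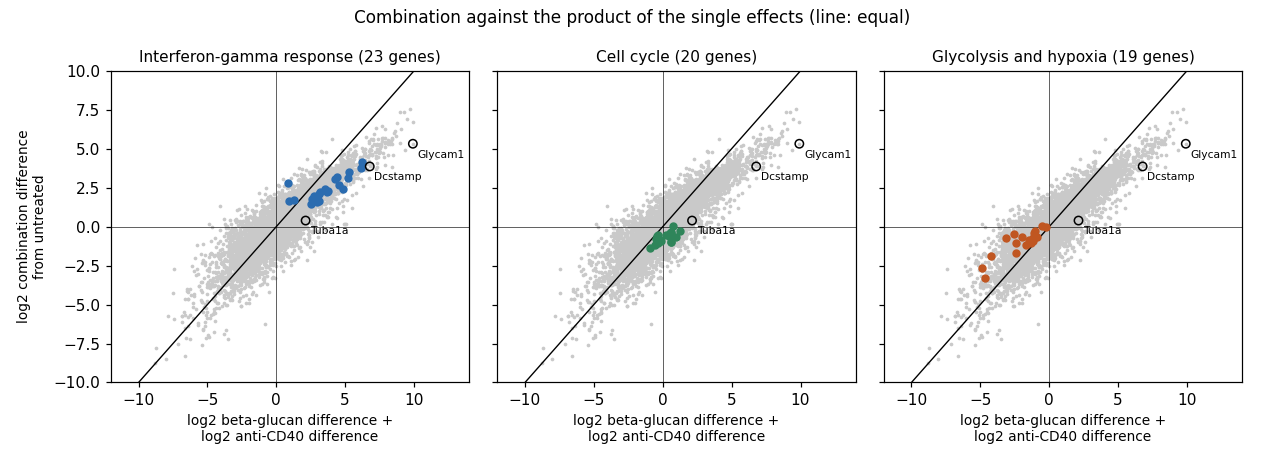
The log2 difference of the combination from untreated (vertical) against the sum of the beta-glucan and anti-CD40 differences (horizontal) for all 14278 genes (grey), with the members of 1 list coloured in each panel. Points under the line are below the product of the agents' effects: 20 of 23 interferon-gamma response genes and 20 of 20 cell cycle genes lie under it, and 19 of 19 glycolysis and hypoxia genes lie above it. Of all 14278 genes, 54.2% lie under the line. The untreated tumours enter both axes.

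Interferon-gamma response genes lay below the product of the agents' effects. In this list of 23, 20 interactions were below 0 (54.2% of all genes). At an unadjusted p under 0.05, 15 were below 0 (5.2% of all genes) and 0 above (3.16% of all genes). None of the 23 passed the adjusted threshold with limma; DESeq2 on recovered reads gave Cxcl9, Cxcl10 and Serpina3g adjusted p of 0.0328, 0.0285 and 0.042. The median interaction was -1.22, against -0.06 for all genes, and the median log2 differences from untreated were 1.11 with beta-glucan, 2.41 with anti-CD40 and 2.24 with the combination. On the linear scale 20 of 23 were also below 0 (44.5% of all genes), with 1 at an unadjusted p under 0.05 (2.61%). The list mean per tumour was 5.84 to 6.797 untreated, 6.15 to 8.17 with beta-glucan, 7.91 to 9.19 with anti-CD40 and 8.01 to 9.03 with the combination, on the log2 scale. The combination tumours thus lay inside the anti-CD40 range.

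Serpina3g, a serine protease inhibitor, was at 41.6, 25.9, 60.5, 51.5 and 164 in untreated tumours, 194.8 to 475.3 (median 252.4) with beta-glucan and 574.4 to 1987 (median 720.8) with anti-CD40. Combination tumours held 1257, 678.5, 1136, 1403 and 803.1, inside the anti-CD40 range and above every beta-glucan tumour. Its log2 interaction was -2.08 ± 0.52 (adjusted p = 0.193), and -2.46 without untreated tumour 6 (adjusted p = 0.0365), which held the 164.

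Cxcl9, a chemokine that draws CXCR3-bearing T cells, was at 1275, 467.8, 352.7, 711.4 and 834 in untreated tumours, 1169 to 3213 (median 2504) with beta-glucan and 5583 to 14330 (median 7522) with anti-CD40. Combination tumours held 9931, 7175, 9300, 4761 and 7179, overlapping anti-CD40 and above all beta-glucan tumours. Cxcl9 had a log2 interaction of -1.75 ± 0.46 (adjusted p = 0.209). Cxcl10, which binds the same receptor, was at 138.1, 64.7, 79.8, 55 and 35.06 untreated, 70.3 to 440.9 (median 239.4) with beta-glucan, 296.1 to 1422 (median 640.5) with anti-CD40 and 421.9, 597.5, 466.9, 95.6 and 514.1 with both, with combination tumour 4 the low one. Cxcl10 had a log2 interaction of -2.45 ± 0.72 (adjusted p = 0.255). The transcription factor Irf1 had an interaction of -1.04 and the guanylate-binding protein Gbp2 of -2.08, both at an unadjusted p under 0.05. The Gbp genes are near-identical copies in part, so reads may be split among them.

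The promoters of 2 members are shown for the letters of known interferon elements, with no test of their part in the values. They are the 250 bases before the RefSeq start on GRCm38.p6, 5′ to 3′ on the gene's strand, with matches to GAS (TTCNNNGAA) or ISRE (GAAA, 2 bases of any kind, then GAAA again, bound by Irf factors) on either strand in capitals. Serpina3g lies at chr12:104235897-104236146 (plus strand) and Gbp5 at chr3:142496684-142496933 (plus strand).
Serpina3g: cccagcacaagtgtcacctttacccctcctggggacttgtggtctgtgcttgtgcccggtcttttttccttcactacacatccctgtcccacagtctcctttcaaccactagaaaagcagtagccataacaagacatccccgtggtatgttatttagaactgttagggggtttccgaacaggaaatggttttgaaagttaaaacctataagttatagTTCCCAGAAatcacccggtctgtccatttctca
Gbp5: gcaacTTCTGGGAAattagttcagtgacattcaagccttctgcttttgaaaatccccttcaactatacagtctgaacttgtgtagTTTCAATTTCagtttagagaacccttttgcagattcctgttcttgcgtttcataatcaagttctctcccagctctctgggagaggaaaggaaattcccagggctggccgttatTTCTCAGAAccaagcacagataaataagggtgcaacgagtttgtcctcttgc
Of the 23 list members, 14 matched a RefSeq promoter of 300 bases, and 7 of these (50%) held GAS and 10 (71.4%) ISRE, against 8.47% and 3.49% of 27025 promoters. A match is a description of the letters, not of binding. The list is of interferon-gamma response genes, so these shares describe the list and do not bear on the interaction.

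Genes of antigen presentation through MHC class I lay mostly below the product too. Of 13 tested members, 12 were below 0 on the log2 scale (54.2% of all genes), with a median of -0.84. Of these, 5 had an unadjusted p under 0.05 (5.2% of all genes). Nlrc5, the transactivator of class I genes, was at -1.35 ± 0.40 (adjusted p = 0.251), the immunoproteasome subunit Psmb8 at -1.27 ± 0.44 (0.339), and Tap1, the peptide transporter, at -0.94. On the linear scale 10 of 13 were below 0 (44.5% of all genes), with 0 at an unadjusted p under 0.05. The H2 genes resemble one another, and their reads may be split.

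The type I interferon response list did not share this pattern. Of its 23 tested members 16 were above 0, with a median of 0.20, where 54.2% of all genes were below 0. At an unadjusted p under 0.05, 2 were above 0 (3.16% of all genes). Those members, Mx2 and Mx1 of the family of antiviral GTPases, had interactions of 3.11 ± 0.97 (adjusted p = 0.282) and 1.20 ± 0.53 (adjusted p = 0.544). GENCODE M21 types Mx2 as a polymorphic pseudogene. The mean of Mx2 was 47.1 untreated, 18.4 with beta-glucan, 19.1 with anti-CD40 and 40.7 with both. Mx1 stood at 69.2, 34.8, 46.3 and 53.7 in the same order, so neither mean rose above untreated. With a pseudocount of 8 the interaction of Mx2 was 2.14. The difference between the lists was not tested.

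Dectin-1 pathway genes lay below the product and mostly above the sum. Of 20 members, 16 were below 0 on the log2 scale (54.2% of all genes), with a median of -0.82. Of these, 10 had an unadjusted p under 0.05 (5.2% of all genes). On the linear scale 15 of 20 were above 0, where 44.5% of all genes were below 0. The median log2 difference from untreated was 1.68 with beta-glucan, 1.47 with anti-CD40 and 2.44 with both. Clec7a, which encodes Dectin-1 itself, was at -1.06 ± 0.42 (adjusted p = 0.451), Clec4e, the receptor Mincle, at -2.40 ± 0.70 (0.251) and Clec4n, the receptor Dectin-2, at -1.48 ± 0.41 (0.222). Like Mx2, Clec7a is typed as a polymorphic pseudogene in GENCODE M21. Prkcd, the kinase that acts upstream of Card9, was at -1.03. On the CD40 side, 14 of 20 genes of the CD40 and NF-kB list were below 0 (54.2% of all genes), with a median of -0.30. Of these, 3 had an unadjusted p under 0.05 (5.2% of all genes). Among them the inhibitor Nfkbia was at -0.70 and the adaptor Traf1 at -1.01.

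The B cell list had 12 of 12 members below the product (54.2% of all genes), with a median of -1.20, and 8 of 12 below the sum (44.5%). Of the 12, 3 had an unadjusted p under 0.05 on the log2 scale (5.2% of all genes). The mean level of the list was 2.08 to 3.41 untreated, 3.35 to 6.34 with beta-glucan, 5.30 to 7.84 with anti-CD40 and 6.55 to 7.91 with the combination. Untreated levels were low, and with a pseudocount of 8 the median interaction was -0.76. Cd79b, part of the B cell receptor, had a log2 interaction of -2.38 ± 0.73 (adjusted p = 0.265) and Pou2af1, a B cell coactivator, of -1.82 ± 0.56 (0.267). In the T cell list 13 of 18 were below the product (54.2% of all genes), with a median of -0.18. Of the 18, 15 were above the sum, where 44.5% of all genes were below it. Of the lymphoid tissue list, to which Glycam1 belongs, 7 of 8 were below 0 (54.2% of all genes), with a median of -1.84. Of these, 3 had an unadjusted p under 0.05 (5.2% of all genes). Madcam1, an addressin of mucosal venules, was at -2.94 ± 0.97 and the B cell chemokine Cxcl13 at -2.12 ± 0.79. These values depend on the pseudocount: with 8 the list median was -0.59, Madcam1 -1.78 and Cxcl13 -1.11.

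Cell cycle genes were below both the product and the sum in every member of the list. All 20 had interactions below 0 on the log2 scale (54.2% of all genes) and on the linear scale (44.5%), with a log2 median of -0.79. At an unadjusted p under 0.05 were 8 on the log2 scale (5.2% of all genes) and 7 on the linear scale (2.61%). The median difference from untreated was 0.18 with beta-glucan, 0.10 with anti-CD40 and -0.66 with the combination. The list mean was 7.93 to 8.56 in untreated tumours, 8.33 to 8.79 with beta-glucan, 7.20 to 9.12 with anti-CD40 and 7.11 to 8.11 with the combination. Combination tumours were all below every beta-glucan tumour, and they overlapped the untreated range only through untreated tumour 6 (7.93).

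Ccnb1, the cyclin B of entry into mitosis, was at 306.1, 321.9, 210.6, 350.5 and 324.3 in untreated tumours, 324.9 to 492.99 (median 379.3) with beta-glucan and 182 to 628.8 (median 372.6) with anti-CD40. Combination tumours held 200, 215, 199.3, 99.6 and 88.3, below every beta-glucan tumour. Its log2 interaction was -1.62 ± 0.41 (adjusted p = 0.193). Ccna2, the cyclin of DNA replication, was at -1.58 ± 0.47 (0.255), and Rrm2, a ribonucleotide reductase subunit, at -1.07. Mki67, which encodes the proliferation antigen Ki-67, was the member nearest 0, at -0.16, with a 95% interval from -0.90 to 0.58. Krt19, an epithelial marker, was lower in the combination than in either single-agent group. It was 1 of 2 epithelium list members, of 18 tested, that were below both agents. Its part in the cell cycle values was not tested.

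The Ccnb1 promoter shows CCAAT boxes (CCAAT, bound by NF-Y), which are frequent before cell cycle genes and are in capitals here. It lies at chr13:100786487-100786736 on the minus strand of GRCm38.p6.
Ccnb1: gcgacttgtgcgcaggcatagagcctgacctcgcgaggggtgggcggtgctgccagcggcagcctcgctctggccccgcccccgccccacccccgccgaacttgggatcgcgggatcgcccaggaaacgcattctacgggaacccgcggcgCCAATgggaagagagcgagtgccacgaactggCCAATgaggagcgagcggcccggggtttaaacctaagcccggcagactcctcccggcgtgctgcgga
Of the 20 members 18 matched a promoter, and 16 of these (88.9%) held CCAAT on either strand against 37.9% of all promoters. The CHR element TTTGAA was in 9 (50%), against 18.1% of all promoters. These shares describe a list of cell cycle genes and do not bear on the interaction.

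Glycolysis and hypoxia genes showed the reverse sign, again in every member. All 19 were above 0 on both scales, with a log2 median of 0.72. Of all genes, 54.2% were below 0 on the log2 scale and 44.5% on the linear scale. At an unadjusted p under 0.05 were 4 list members on the log2 scale (3.16% of all genes) and 5 on the linear scale (3.64%). The median difference from untreated was -0.59 with beta-glucan, -0.91 with anti-CD40 and -0.75 with the combination. The list mean was 9.96 to 10.26 in untreated tumours, 9.13 to 9.70 with beta-glucan, 7.51 to 9.70 with anti-CD40 and 8.72 to 9.34 with both, so every treated tumour was below every untreated one.

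Bnip3, a mitochondrial protein of hypoxia-induced autophagy, was at 2671, 2439, 3654, 3041 and 3159 in untreated tumours, 1224 to 2255 (median 1776) with beta-glucan and 899.2 to 1973 (median 1317) with anti-CD40. Combination tumours held 2259, 1758, 1980, 1818 and 1506, overlapping both single-agent groups and below all untreated tumours. Bnip3 had a log2 interaction of 1.32 ± 0.29 (adjusted p = 0.119). The glycolytic enzymes Pgam1 (2.40 ± 0.70, adjusted p = 0.246), Pfkl (1.31) and Aldoa (0.72) also had an unadjusted p under 0.05. The Bnip3 promoter (chr7:138909507-138909756, minus strand, GRCm38.p6) is shown with ACGTG, the core of the hypoxia response element, in capitals. Its match is on both strands and overlaps itself.
Bnip3: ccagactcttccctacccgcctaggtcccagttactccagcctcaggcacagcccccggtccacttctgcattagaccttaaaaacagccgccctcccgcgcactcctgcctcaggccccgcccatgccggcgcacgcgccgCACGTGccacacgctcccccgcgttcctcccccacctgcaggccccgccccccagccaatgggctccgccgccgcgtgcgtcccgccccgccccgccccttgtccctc
In the list 19 of 20 matched a promoter, of which 9 (47.4%) held ACGTG, against 19.7% of all promoters. This share describes a list of glycolysis and hypoxia genes and does not bear on the interaction.

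**Figure D3:**
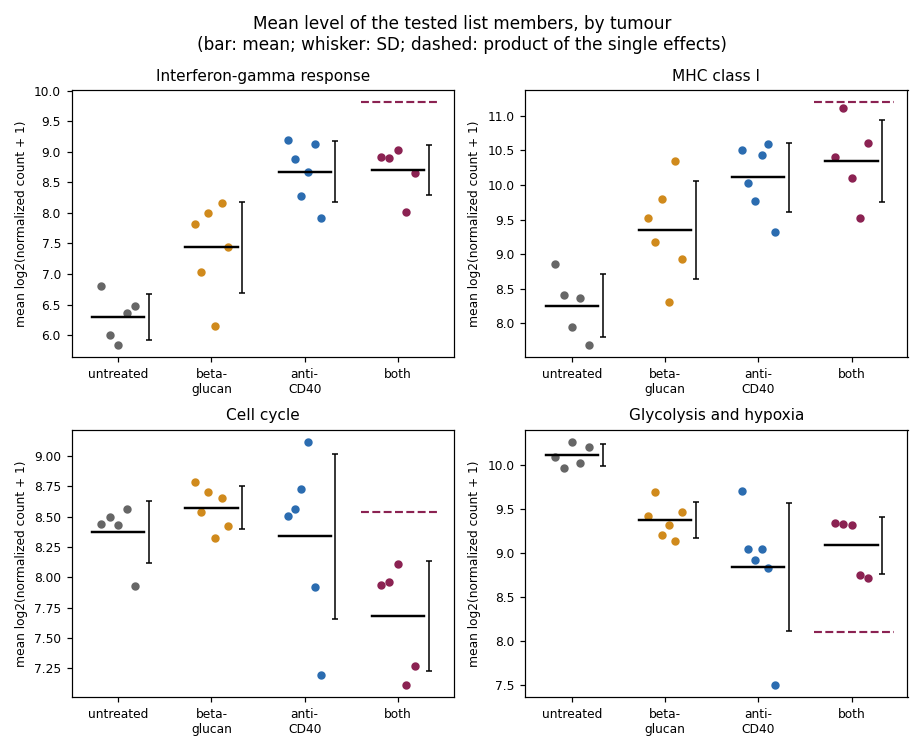
Mean log2(normalized count + 1) of the tested members of 4 lists in each tumour, by group (points, tumours; bars, group means; whiskers, SD). The dashed line marks the product of the single effects, which is above all 5 combination tumours for the interferon-gamma response list and for the cell cycle list and below all 5 for the glycolysis and hypoxia list.

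For several other lists the median was nearer the product. The median log2 interaction was -0.32 for macrophages, -0.52 for neutrophils, -0.12 for collagen matrix, -0.07 for endothelium and 0.16 for epithelium. In the neutrophil list 12 of 15 were above the sum, and in the collagen matrix list 19 of 23. Of all genes, 44.5% were below the sum. Within neutrophil genes Ltf, the granule protein lactoferrin, was at 2.50 ± 0.67 (adjusted p = 0.21). The chemokine Cxcl2 was at 2.02 ± 0.81 (0.456), both in contrast with Fpr2. The mean of Ltf was 831.8 untreated, 456.1 with beta-glucan, 400.7 with anti-CD40 and 839.5 with both. Cxcl2 stood at 87.0, 257.1, 35.1 and 306.8 in the same order. The median log2 difference of the neutrophil list from untreated was 2.55 with beta-glucan, 1.42 with anti-CD40 and 3.42 with both. Of the inflammatory fibroblast list 12 of 12 were below the product (54.2% of all genes), with a median of -0.87. Of these, 1 had an unadjusted p under 0.05 (5.2% of all genes). The acinar and islet lists hold the transcripts of normal pancreas, whose share differed widely between tumours. Below 0 were 26 of 26 acinar and 13 of 13 islet members (54.2% of all genes), with medians of -2.35 and -3.36. At an unadjusted p under 0.05, 0 acinar members and 1 islet member were below 0 (5.2% of all genes). With a pseudocount of 8 the islet median was -1.72. With the acinar level as a covariate, limma called 3 genes, and the median interaction was -1.26 for the interferon-gamma response list, -0.85 for the cell cycle list and 0.56 for the glycolysis and hypoxia list. Without the tumours over 30% acinar reads (anti-CD40 2 and 6, combination 4 and 5) these medians were -1.11, -0.60 and 0.71.

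**Figure D4:**
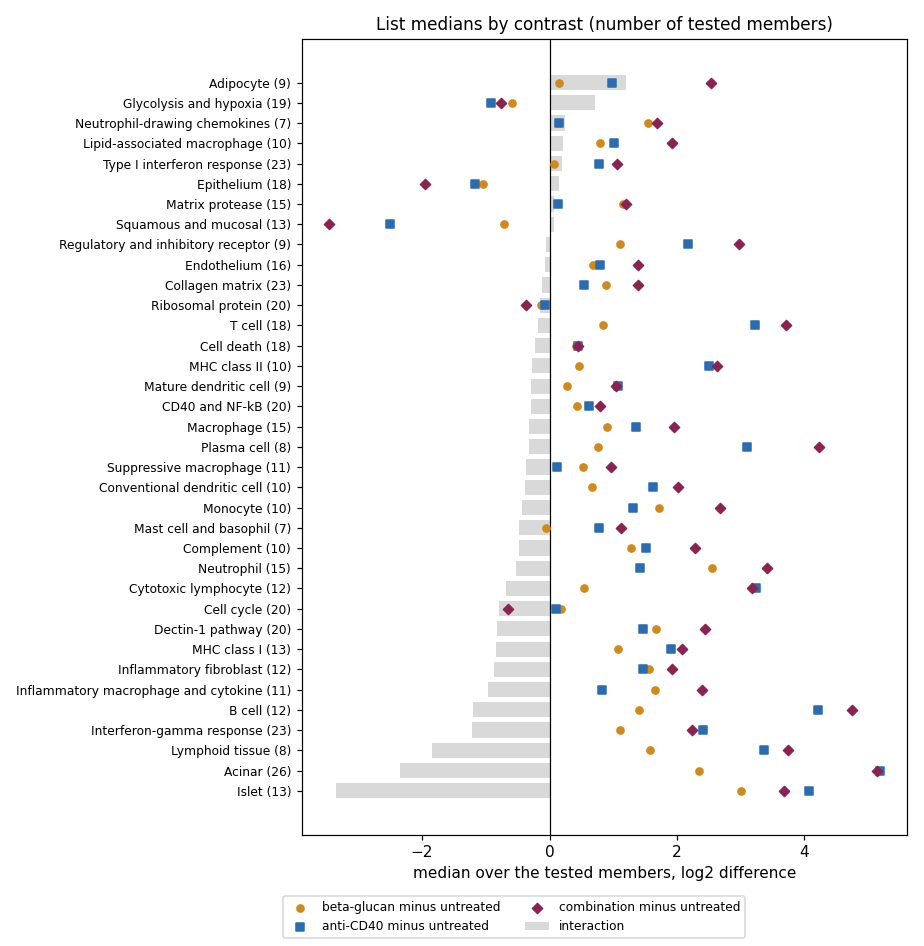
Median log2 difference over the tested members of each list with at least 7 of them, for each treatment against untreated (symbols) and for the interaction (bars), in order of the interaction. The cell cycle list is the one where the combination lies at -0.66 while both single agents lie above 0, and in the glycolysis and hypoxia list all 3 treatments lie below 0.

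A departure from the stronger agent needs no assumption on how effects join. The combination was above both single agents in 31 genes (0.217%) and below both in 112 (0.784%), each with both adjusted p at most 0.05. The genes above both were led by Gpnmb, S100a8, Mcemp1, C3ar1, Abca1 and Alox5ap. They included Cd68, Ctsb, Fcgr3 and the oxidase subunit Ncf1. Of the macrophage list, 1 of 15 members (Cd68) was above both agents (0.217% of all genes). The counts of genes beyond both agents rested on single tumours. Without 1 of the single-agent tumours, the 143 in all became 13 without anti-CD40 2, 14 without anti-CD40 3, 21 without anti-CD40 4, 57 without anti-CD40 1, 66 without beta-glucan 2, 68 without beta-glucan 1 and 91 without beta-glucan 6. They became 24 without combination 5, 28 without combination 1, 38 without combination 4, 47 without combination 2 and 73 without untreated 1. They numbered 217 without combination 3, 319 without anti-CD40 6 and 587 without anti-CD40 5. Rescaled to equal totals, 3 genes were beyond both agents, 0 above and 3 below.

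Gpnmb, a glycoprotein of lipid-laden macrophages, was at 189.7, 200.2, 131.6, 120.3 and 119 in untreated tumours, 157.1 to 396.2 (median 279.5) with beta-glucan and 336.7 to 1626 (median 501.2) with anti-CD40. Combination tumours held 1942, 1212, 1253, 2896 and 2173, all above every beta-glucan tumour. The combination was higher than beta-glucan (adjusted p = 7.72e-05) and than anti-CD40 (adjusted p = 0.0271). Its log2 interaction was 0.87 ± 0.50 (adjusted p = 0.69), with a 95% interval from -0.16 to 1.90.

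S100a8, a calcium-binding alarmin of neutrophils and monocytes, was at 455.9, 448.8, 1095, 703.4 and 693.7 in untreated tumours, 2066 to 5461 (median 4283) with beta-glucan and 585.1 to 10410 (median 3916) with anti-CD40. Combination tumours held 13330, 10760, 11590, 13920 and 10330, above every beta-glucan tumour. Against anti-CD40 the adjusted p was 0.0472, and the log2 interaction of S100a8 was -0.52 ± 0.72, with an interval from -2.02 to 0.98. C3ar1, the receptor of complement fragment C3a, was at 490.8, 451.4, 350.1, 450.2 and 1484 untreated, 775.3 to 1109 (median 905.6) with beta-glucan, 673.5 to 1535 (median 834.8) with anti-CD40 and 2477, 1528, 2013, 2423 and 1814 with both. Combination tumour 2 alone was under the highest anti-CD40 tumour, and the adjusted p of the combination was 0.00732 against beta-glucan and 0.0321 against anti-CD40. Abca1, the cholesterol exporter, lay at the product: its interaction was 0.00 ± 0.34 (95% interval -0.69 to 0.69), and the combination was 2.39 above untreated where the agents gave 1.29 and 1.10.

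Genes below both agents were led by Lgals2, Mcpt2, Cldn18, Vsig1, Glod5 and Adam28. Lgals2, a galectin of digestive epithelium, was at 221.3, 297.8, 233.4, 442.2 and 102.7 in untreated tumours, 79.5 to 488.4 (median 216.4) with beta-glucan and 12.6 to 559.7 (median 189.5) with anti-CD40. Combination tumours held 0, 3.65, 27.5, 1.33 and 0, below all untreated and beta-glucan tumours, and combination tumour 3 alone exceeded the lowest anti-CD40 tumour. The log2 interaction of Lgals2 was -5.39 ± 1.19 (adjusted p = 0.144) and depends on the pseudocount, being -3.62 with 8. Its linear interaction was -222 ± 295.

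Mcpt2, a protease of mucosal mast cells, was at 1116, 712.9, 961.7, 1188 and 951.7 untreated, 175.8 to 1234 (median 545) with beta-glucan, 46.4 to 520.1 (median 240.4) with anti-CD40 and 4.50, 4.26, 52.5, 0 and 6.79 with both. Its reads may be shared with the related Mcpt1, and the log2 interaction was -3.68 ± 1.07 (adjusted p = 0.255). With a pseudocount of 8 the interaction was -2.48. Mcpt8, a basophil protease, was lower with the combination than with beta-glucan (adjusted p = 6.75e-05) and anti-CD40 (0.00704). It was the only 1 of 7 tested members of the mast cell and basophil list below both agents, and the list's median log2 difference from untreated was -0.05 with beta-glucan, 0.78 with anti-CD40 and 1.13 with the combination. Cpa3, a carboxypeptidase of mast cell granules, was at a mean normalized count of 10.3 ± 10.8 (SD, n = 5) untreated, 11.8 ± 9.25 (SD, n = 6) with beta-glucan, 41.8 ± 28.3 (SD, n = 6) with anti-CD40 and 25.5 ± 17.1 (SD, n = 5) with the combination.

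Krt19 was at 6008, 6328, 5083, 5657 and 2918 in untreated tumours, 1268 to 3446 (median 2594) with beta-glucan and 383.1 to 3014 (median 2134) with anti-CD40. Combination tumours held 293.3, 258.9, 606.1, 183.3 and 120.3, below all beta-glucan tumours and, except for tumour 3, all anti-CD40 tumours. Its log2 interaction was -1.26 ± 0.73 (adjusted p = 0.696), with an interval from -2.77 to 0.25, and its linear interaction was 1280 ± 1690. Krt19 was thus below both agents, and a departure from their product was not detectable. Of the epithelium list, 2 of 18 tested members were below both agents (0.784% of all genes). The list mean was 8.45 to 9.16 untreated, 7.64 to 8.28 with beta-glucan, 5.79 to 8.54 with anti-CD40 and 6.21 to 7.17 with the combination. Epcam, another member, was at 163.3 to 1583 with anti-CD40 and 216.1 to 451.9 with the combination. Krt19 is also in the mesothelium list.

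**Figure D5:**
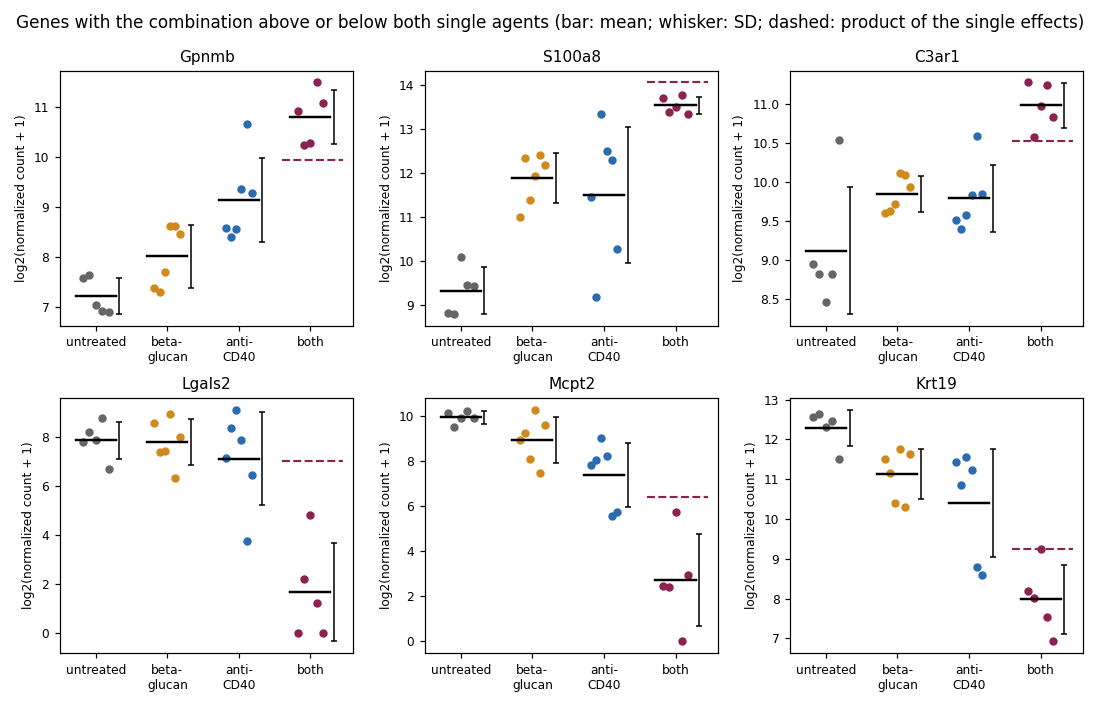
Log2(normalized count + 1) of 6 genes in which the combination was above or below both single agents, by tumour and group (points, tumours; bars, group means; whiskers, SD; dashed line, product of the single effects). Gpnmb, S100a8 and C3ar1 are highest with the combination, Lgals2, Mcpt2 and Krt19 lowest.

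Of the genes chosen as readouts of both pathways, several had interactions near 0 with intervals that still admit large effects. The interaction was 0.01 for Cd40 (95% interval -1.12 to 1.14), -0.05 for Ifng (-2.12 to 2.01), -0.06 for Tnf (-1.33 to 1.20) and 0.18 for the interleukin-12 subunit gene Il12b (-2.20 to 2.56). It was -0.05 for the monocyte receptor Ccr2 (-1.32 to 1.21), 0.24 for Arg1, the arginase of suppressive macrophages (-0.73 to 1.22), and 0.39 for Cd274, the checkpoint ligand PD-L1 (-0.90 to 1.68). Col1a1, the main fibrillar collagen, was at -0.13 (-0.92 to 0.67), and Ly6c2, a monocyte antigen, at -2.12 (-3.47 to -0.77, adjusted p = 0.28). Cd8a was at -0.59 and the cytotoxic protease gene Gzmb at -2.17, neither passing the adjusted threshold. With a pseudocount of 8 Gzmb was at -0.73.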

How the data were processed

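RNA from sections of formalin-fixed, paraffin-embedded tumours was made into 3' mRNA libraries, per the labels' protocols, so a value reads the 3' end of a transcript. The authors used STAR, DESeq2 and the build mm10, per the submitters' processing notes, which name no versions. Which strand setting, counting program and annotation were used is not given in the sources used here. The deposited values are normalized counts, a signal made of read counts divided by a size factor. All 395252 values were whole multiples of 1 step per tumour within 0.001 reads (100%), which gave the depth, and 0 value columns lacked a sample. No 2 tumours of a group agreed within sampling noise.

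Log2(value + 1) was fitted with limma 3.58.1 in R 4.3.3 (means of 4 groups, trended and robust moderation, two-sided, Benjamini-Hochberg over all genes tested). The linear fit weighted each group by 1 over its squared mean. The ± is a standard error. Alternatives included edgeR 4.0.16 and DESeq2 1.42.0 on recovered reads. The steps were tested on simulated data. Lists are described by counts and medians, with no test. Named genes are, in each direction, the 10 of smallest p for the log2 interaction (called genes first), 5 for the linear one, 6 beyond both agents, 2 of each list, and a panel of 24. The members and lists were chosen with earlier results of these data known, and other list members are named after their values were seen. Positions are from GENCODE M21 (GRCm38), to which 17699 of 17966 symbols matched, and promoters from RefSeq (GRCm38.p6). A few genes are not reported here.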

Additional observations from a re-analysis of the deposited data

Results flagged for a closer look

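The combination response differed from the product of the single responses, by the interaction test, in Glycam1 (log2 interaction -4.60), Dcstamp (-2.92) and Tuba1a (-1.74). Among 100 groups of values examined for a tumour that stood apart from its group, 8 held one, and chance gives about 1 in 20. Of these 8 tumours, 3 were untreated tumour 6: its C3ar1 was high (1484), its Krt19 low (2918) and its mean cell cycle level low (7.93). Untreated tumour 2 was low in Pimreg (47.5) and untreated tumour 3 in Ccnb1 (210.6). Combination tumour 4 was low in Eno3 (27.9) and in Cxcl10 (95.6), and anti-CD40 tumour 5 was high in Il2rg (5359).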

How the results depend on the processing

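The number of genes called for the log2 interaction was 3 and the number beyond both single agents 143. With a pseudocount of 8 the first was 0, with a minimum of 50 it was 5, with quantile normalization 0 and with reads thinned to equal depth 0, with 140 beyond both. With equal totals the numbers were 0 and 3, with equal totals outside the acinar list 1 and 15, with DESeq2 98 and 481, and with log2 depth as a covariate 1 and 60. With no trend and no robust moderation 49 genes were beyond both, and without tumours over 30% acinar reads 7. Leaving out 1 tumour gave 0 to 12 called for the log2 interaction and 13 to 587 beyond both. On the linear scale 1 gene was called without the tumours over 30% acinar reads, 31 with no weights and 0 in the other settings.

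The correlation of deviations cannot decide whether the replicate numbers pair the tumours. Over 30 same-numbered pairs of tumours it had a median of 0.03, from -0.27 to 0.34, and 8 were over 0.1. Over 151 other pairs the median was 0.003. With the replicate block 8 genes were called for the log2 interaction. With the numbers of the column names as a block, a setting chosen after seeing the data, 9 were called and 246 were beyond both. Without the anti-CD40 tumours over 12 M reads, also chosen after seeing the data, 1 was called and 4 were beyond both. No setting reversed the sign of a called gene. The median interaction stayed between -1.61 and -0.99 for the interferon-gamma response list, between -1.05 and -0.60 for the cell cycle list and between 0.54 and 0.80 for the glycolysis and hypoxia list. For the other settings that moved a count, the cause was not tested. Depth limits genes with few reads, and the interaction of Glycam1 ranged from -7.83 (edgeR) to -2.06 (pseudocount 8).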

Other observations

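Among the 112 genes below both single agents were genes of sterol synthesis and its transport, noticed after their values were seen, among them Cyp51, Msmo1, Fdps, Sqle and Stard4. Of 24 genes of that pathway, listed after this was noticed, 23 were tested, of which 6 were below both agents (0.784% of all genes) and 0 above both (0.217%). The median log2 difference from untreated was -0.48 with beta-glucan, -0.67 with anti-CD40 and -1.29 with the combination, and the median interaction was -0.39, with 1 gene below 0 at an unadjusted p under 0.05 (5.2% of all genes). Cyp51, the sterol demethylase, had a mean normalized count of 1206 in untreated tumours, 813.5 with beta-glucan, 681.3 with anti-CD40 and 307.5 with the combination, and its log2 interaction was -0.54. Stard4, a carrier of cholesterol, stood at 458.9, 258.3, 249.3 and 144.4 in the same order, with an interaction of 0.03, so its combination lay at the product of the single effects. Abca1, the cholesterol exporter, was in the other direction, above both agents. Krt19 was also below both agents, as 1 of 2 such members among the 18 tested of the epithelium list. Its part in these values was not tested.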
